A study of Mus musculus with 8 samples.

Results

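The H3K27ac landscape of P5424 cells was compared between wt cells and cells that lack the IkE120 enhancer of *Ikzf1* (ΔIkE120). The libraries were chosen by assay and cell line, as the 2 H3K27ac ChIP-seq libraries among the 8 libraries of the series. The other libraries are 4C profiles and were not used here. P5424 is a mouse thymic tumour line that serves as a model of T cell precursors. The ΔIkE120 cells carry a CRISPR/Cas9 deletion of the enhancer on both alleles and were grown from a single cell, so a difference from wt can also be a difference between a clone and its parental population. Each genotype was measured in 1 library, so values have no replicate error and no p-value, and a gene is said to have been called only where its ratio passed a fixed fold. PMA/ionomycin treatment is described for the series, but the stimulation state of the cells used for ChIP-seq is not stated for these libraries.

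H3K27ac is acetylation of lysine 27 on histone H3. It marks promoters and enhancers in use, and genes that define a cell type often carry it over long stretches. *Ikzf1* encodes Ikaros, a zinc finger protein of lymphoid cells that binds DNA and works with the NuRD chromatin remodelling complex. In thymocytes Ikaros restrains Notch target genes and its loss is found in T cell leukaemia.

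The measure was the number of bases covered by peaks within 10 kb of the body of each protein-coding gene, given in bp. It records how much of a locus was called, not how strong the signal was. The fold enrichment that the lists give is a mean over each peak, so a short peak around a strong centre can have a higher value than a long one. The wt list held 34550 peaks on the standard chromosomes, which covered 25189005 bp, and the ΔIkE120 list held 29898 peaks, which covered 22141491 bp. The mean peak was 729 bp long with a mean fold enrichment over background of 3.25 in wt, against 741 bp and 3.40 in ΔIkE120. Thus, the ratio of covered bases was 0.879, and this genome-wide ratio is the background for each gene below. Peaks without any overlap in the other list held 12.6% of the covered bases in wt and 5.91% in ΔIkE120, with a median fold enrichment of 2.80 in both. Over the 22697 peaks that overlapped one-to-one, the median log2 ratio of fold enrichment was 0.04 (quartiles −0.07 and 0.14) and the ratio of bases was 0.947. Most of the net shortfall in ΔIkE120 therefore lay in peaks without a partner, which were weaker than the typical peak.

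Of 21887 protein-coding genes, 13570 (62.0%) had a covered base in wt and 13185 (60.2%) in ΔIkE120. Both lists covered 13003 genes, wt only 567, ΔIkE120 only 182 and neither list 8135. Over the 13752 genes covered in either list, the covered bases of wt and ΔIkE120 had a Spearman coefficient of 0.935 (genes are not independent replicates), and 79 genes were among the top 100 of both lists. The landscape of genes was thus largely shared by the genotypes.

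The gene with the most covered bases was *Gse1*, which encodes a partner of histone deacetylase complexes, with 21170 bp in wt and 20091 bp in ΔIkE120. *Clec16a*, a regulator of autophagy, had 20336 and 16229 bp, of which 1834 bp in wt also lay within 10 kb of *Dexi*. *Nfia*, a transcription factor, had 19778 and 19365 bp. These long genes carried more than 20 separate peaks each in both genotypes. *Arid1b*, a subunit of the BAF remodelling complex, had 18340 bp in wt and 15282 bp in ΔIkE120. *Foxp1*, a forkhead factor that keeps naive T cells quiescent, had 17525 and 15125 bp. *Hivep3*, a large zinc finger protein, had 17288 and 14297 bp. *Zmiz1*, a cofactor of Notch1 in T cell leukaemia, had 16029 and 15509 bp. These genes were among the most covered in both lists. At *Nfia* and *Hivep3*, however, no peak lay within 1 kb of a RefSeq start in either list. The other genes of this paragraph with given values had such a peak in both, *Dexi* aside.

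*Prkch*, a protein kinase C of the T cell receptor pathway, had 17194 bp in wt and 12445 bp in ΔIkE120. *Tg*, the thyroglobulin gene, had 15709 and 13932 bp, and 8895 bp of its wt total also lay in the window of *Sla*. *Sla* lies within *Tg* and encodes an adaptor that lowers T cell receptor levels in thymocytes. The window does not assign the shared bases to the thyroid gene *Tg* or to *Sla*. *Msi2*, an RNA-binding protein of blood progenitors, had 16578 and 16186 bp, and *Septin9*, a cytoskeletal gene, 16692 and 14570 bp. The calcium channel gene *Cacna1d* had 18022 and 13847 bp, but no peak within 1 kb of a RefSeq start in either list. The other leading genes in wt were *Mad1l1* (spindle checkpoint), *Ldlrad4* (a brake on TGFβ signalling), *Mvb12b* (endosomal sorting), *Pde10a* (a phosphodiesterase), *Ncald* (a calcium sensor), *Msra* (a methionine sulfoxide reductase), *Tbc1d22a* and *Fstl4*. Their wt values ran from 14923 bp at *Fstl4* to 16443 bp at *Mad1l1*. Of these, *Msra* differed most, with 15403 bp in wt and 10201 bp in ΔIkE120, a log2 ratio of −0.39 relative to the genome-wide ratio. *Runx1*, a founding regulator of the T lineage, had 14149 and 11450 bp.

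Long genes gather more peaks, so the percent of the gene window that was covered was also taken, for windows with at least 10000 covered bases in wt. The median gene covered in wt had 3.79% of its window covered. *Colq*, which encodes the collagen tail of acetylcholinesterase, led with 15.8% (11806 bp in wt and 9814 bp in ΔIkE120). *Bcl2l1*, which encodes the survival factor Bcl-xL of double-positive thymocytes, had 11.9% (11356 and 10190 bp). *Ccnd3*, the cyclin of thymocyte proliferation after β-selection, had 11.8% (13567 and 13753 bp). *Ikzf3*, which encodes the Ikaros relative Aiolos, had 10.9% (11051 and 11226 bp), of which 3219 bp in wt were shared with *Zpbp2*. *Ets1*, a transcription factor of thymocytes, had 8.17% (11570 and 10173 bp). The 20 most densely covered genes thus included known thymocyte genes beside genes with no such role. *Rab11fip4*, *Tom1l2* and *Rai1* had 10.0%, 9.47% and 9.02% of their windows covered in wt. *Col15a1*, *Sestd1*, *Reep1*, *Macrod1*, *Ccdc57*, *Bcor* and *Rapgef1* followed, between 7.97% and 8.79%, together with *Clec16a*, *Septin9*, *Mvb12b*, *Prkch* and *Tg* from the list above. *Col15a1* had no peak within 1 kb of a RefSeq start in either list. The 11 wt peaks of *Colq* were spread over the gene, and 10 of them overlapped a ΔIkE120 peak.

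All 20 T lineage genes had a covered base in both genotypes, with a median of 4932.5 bp in wt and 4360.5 bp in ΔIkE120, against a median of 999 and 899 bp over all protein-coding genes. *Cd247*, which encodes the zeta chain of the T cell receptor complex, had 9157 and 8266 bp. *Bcl11b*, the factor that commits cells to the T lineage, had 8413 and 7139 bp, and *Gata3*, a further T lineage factor, 7317 and 6095 bp. *Lck*, the kinase bound to CD4 and CD8, had 6432 and 7057 bp, and *Cd3e*, a CD3 chain, 4558 and 5198 bp. *Ptcra*, which encodes the pre-T cell receptor chain of early thymocytes, had 5076 and 5525 bp. The fewest bases were at *Cd5*, with 993 and 981 bp. None of the 19 T lineage genes that were tested was called, which says little, since only 0.242% of all tested genes were called lower and 0.0559% higher. They ranged from −0.43 at *Zap70* (3849 and 2346 bp), a kinase of the T cell receptor, to 0.36 at *Cd3e*.

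All 10 genes of the double-positive stage were covered in both genotypes, with a median of 4587.5 bp in wt and 3795 bp in ΔIkE120. *Cd8b1* had 6445 and 6296 bp, *Cd4* 5939 and 6015 bp, and *Dntt*, which encodes terminal transferase, 5539 and 5487 bp. *Arpp21*, a gene of double-positive thymocytes, had 6001 and 6985 bp. *Rag1*, a recombinase gene, had 1082 and 1161 bp and its partner *Rag2* 1703 and 941 bp. *Cd8a* had the lowest log2 ratio of the list at −0.61, with 2419 and 1178 bp. None of the 10 was called, against 0.242% lower and 0.0559% higher over all tested genes. P5424 cells thus carried the mark at genes of early and of double-positive thymocytes alike.

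Genes of other cell types were covered less than those of T cells, but not always less than the typical gene. Over all protein-coding genes 62.0% were covered in wt and 60.2% in ΔIkE120. Of 12 B lineage genes, 10 had a covered base in wt (83.3%) and 8 in ΔIkE120, with a median of 1271 and 771 bp, so in wt the list lay above all genes. *Cd79a*, a B cell receptor chain, had 2623 and 2212 bp, and *Igll1*, a surrogate light chain, 2572 and 1307 bp. The defining genes *Ms4a1* and *Cd22* had 0 bp in both lists, and *Pax5* had 389 bp in wt and 0 in ΔIkE120. The B lineage list summed to 14931 bp in wt and 9338 bp in ΔIkE120. *Blk*, a kinase of B cells and of some thymocytes, contributed 1828 bp in wt and 0 in ΔIkE120, and its mean was below the limit of 1000 bp used for ratios. Of 12 myeloid genes, 7 were covered in wt and 4 in ΔIkE120, and the list summed to 10421 and 6473 bp. *Itgam* led it with 3157 and 2560 bp, and *Spi1*, which encodes PU.1, had 1764 and 1204 bp. *Mpo* had 1166 bp in wt and *Cebpb* 901 bp, both with 0 in ΔIkE120, and *Csf1r*, *Lyz2* and *Adgre1* had 0 in both. B lineage and myeloid sums were thus lower relative to wt than the sum over all genes (ratios 0.625 and 0.621 against 0.911), from few bases. Other thinly covered lists had low ratios too, with 0.636 for keratins (10476 and 6659 bp), 0.692 for olfactory receptors (37851 and 26179 bp) and 0.737 for epithelial genes (2206 and 1626 bp). Some thin lists had a ratio above that over all genes. It was 1.18 for pluripotency genes (4278 and 5044 bp) and 0.943 for erythroid and megakaryocyte genes (8090 and 7625 bp). Others lay below the ratio over all genes but nearer to it, with 0.878 for NK and innate lymphoid, 0.876 for stem and progenitor and 0.860 for fibroblast and stroma genes. Ratios of such small sums thus varied widely. Few members had enough bases to be called, 6 of 12 in the B lineage and 4 of 12 in the myeloid list, and none was. Whether other cells in the cultures had a part in this was not tested.

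Of 12 genes of NK and innate lymphoid cells, 6 were covered in each genotype, among them *Zbtb16*, the PLZF gene, with 5052 and 4749 bp, and *Tbx21*, the T-bet gene, with 2272 and 1843 bp. *Il7r*, *Gzmb*, *Prf1*, *Ncr1*, *Klrd1* and *Klrk1* had 0 bp in both. Stem and progenitor genes were covered at 7 of 12 in each genotype, led by *Flt3* with 4552 and 3798 bp, while *Cd34*, *Lmo2*, *Hhex*, *Meis1* and *Mycn* had 0. Erythroid and megakaryocyte genes were covered at 6 of 10 in wt and 4 in ΔIkE120, led by *Klf1* with 2826 and 3082 bp. These are genes of neighbouring blood lineages, most of them with fewer bases than the T lineage genes. Outside the blood, pluripotency genes were covered at 5 of 10 in wt and 4 in ΔIkE120, with *Nanog*, *Sox2* and *Klf4* at 0. Fibroblast and stroma genes were covered at 4 of 10 and 3, led by *Thy1*, which is also a T lineage gene and is counted in both lists, with the collagen genes *Col1a1*, *Col1a2* and *Col3a1* at 0. Epithelial genes were covered at 3 of 8 and 2, with *Epcam* and *Krt8* at 0.

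**Figure D1:**
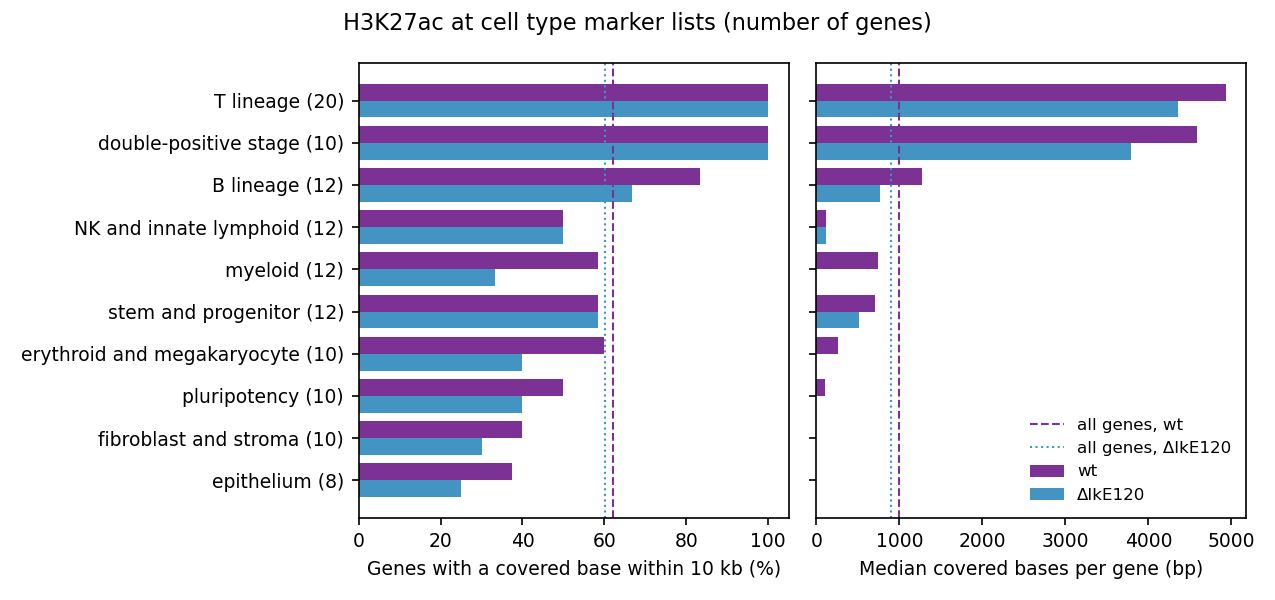
Percent of genes with a covered base within 10 kb (left) and median covered bases per gene in bp (right) for 10 marker lists in wt (purple) and ΔIkE120 (blue), with the number of genes in brackets; lines give the same over all 21887 protein-coding genes in wt (dashed) and ΔIkE120 (dotted). The T lineage and double-positive lists stand at 100% in both genotypes, with the highest medians of the 10 lists.

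Receptor families that thymocytes do not use gave a floor for the measure. Of 1110 olfactory receptor genes, 47 had a covered base in wt and 34 in ΔIkE120, or 4.23% and 3.06%. Of 355 vomeronasal receptor genes, 9 and 7 were covered, and of 39 Hox genes, 4 and 3. *Olfr315* had 2519 and 2386 bp, the most among the olfactory receptors. Peaks near such genes can belong to a neighbour, since the window of 10 kb does not assign a peak to a promoter. Genes that every cell uses stood at the other end. Of 91 ribosomal protein genes, 85 were covered in each genotype, of 78 genes of the mitochondrial ribosome all in each, of 39 proteasome genes 38 in each, and of 108 genes of the respiratory chain and its assembly factors 102 in each. Their median log2 ratios of 0.17, 0.17, 0.19 and 0.12 lay close to the median of 0.12 over all tested genes. Of 70 histone genes, 66 and 65 were covered, with a median log2 ratio of 0.22. None of these genes was called in either direction, against 0.242% lower and 0.0559% higher over all tested genes.

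Differences between the genotypes were then read per gene as the log2 ratio of covered bases, ΔIkE120 over wt, with 500 bp added to each and the genome-wide ratio taken off. The 10725 genes with a mean of at least 1000 bp were tested, and a gene was called at 2-fold or more beyond the background. In ΔIkE120, 26 genes were called lower (0.242% of those tested) and 6 higher (0.0559%). Of the 607 genes with a mean of at least 5000 bp, 0 were called lower (0%) and 0 higher (0%). The median log2 ratio was 0.12 (SD over genes 0.248, quartiles −0.03 and 0.24). Why it lay above 0 was not tested. Measured against that median, 53 genes were lower and 2 higher. The SD fell with the amount covered, from 0.272 over 5233 genes with a mean of 1000 to 2000 bp to 0.210 over those with at least 5000 bp. Calls were therefore few and came from thinly covered genes, 23 of the 26 lower and 5 of the 6 higher having a mean below 2000 bp.

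The calls depended on how peaks were selected and on the pseudocount. When the upper 50% of each list by −log10 q-value was kept, 90 genes were called lower and 30 higher, and with only peaks of a −log10 q-value of at least 5, 68 and 44. None of the 32 was called again in either setting, chiefly because too few of their bases were left. Only 2 of the 32 still had a mean of 1000 bp in each setting, and 17 and 13 had any base. Of these 17 and 13, direction turned for 3 and 4, and 2 in each kept a 2-fold ratio in the same direction, *Ptges* (−1.29) and *Inpp5d* (−1.30) in the first and *Inpp5d* (−1.38) and *Adam19* (−1.05) in the second. With a pseudocount of 2000 bp, 0 and 0 genes were called. With the same number of top peaks from each list, 19 genes were called lower and 12 higher, and 17 of the 32 were called again. The strongest peak of a called gene, moreover, often did not follow its covered bases. Among the 26 lower genes its mean fold enrichment was lower in ΔIkE120 at 8, higher at 17, and without a value at 1. Among the 6 higher genes it was lower at 4 and higher at 2, and among all tested genes lower at 3960 and higher at 6764. A call thus describes how many bases the deposited lists hold at a gene, not how strongly its best peak was enriched.

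**Figure D2:**
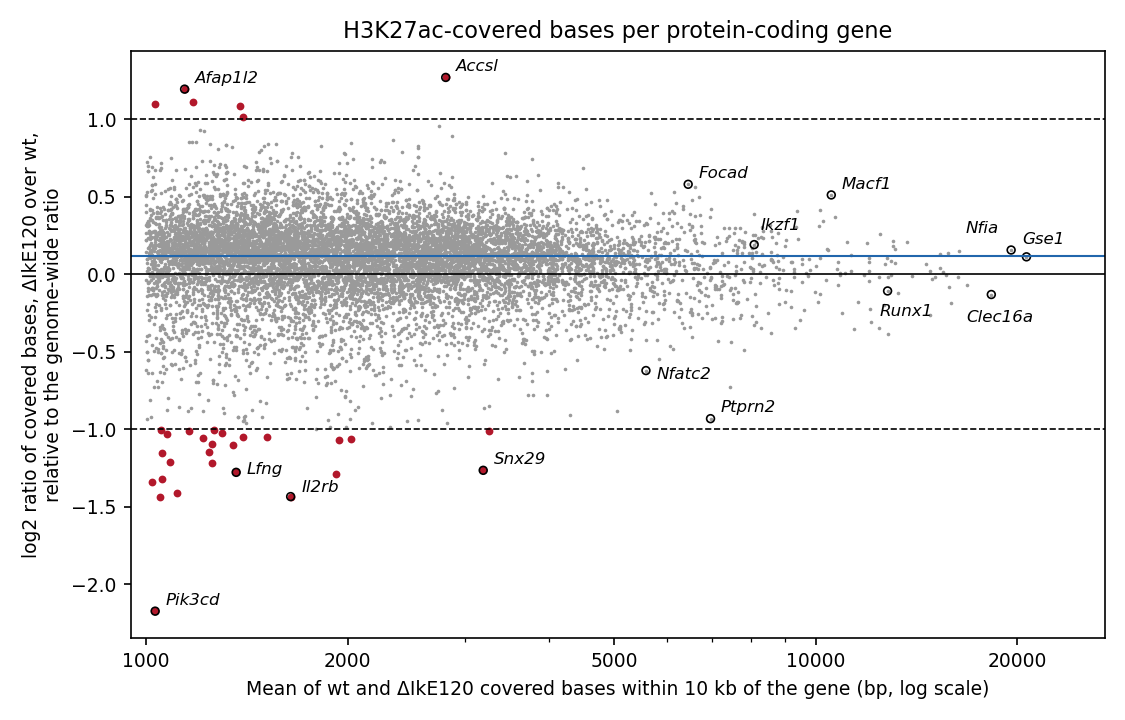
Log2 ratio of covered bases (ΔIkE120 over wt, relative to the genome-wide ratio, with 500 bp added) against the mean of covered bases in bp on a log scale, 1 point per gene for the 10725 genes tested. Red points passed the dashed lines at 2-fold (26 below, 6 above), black circles are named genes, the blue line is the median over genes at 0.12, and the spread narrows as coverage rises.

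The lowest ratio was at *Pik3cd*, which encodes the leukocyte PI3 kinase subunit p110δ. It had 2065 bp in 5 wt peaks and 0 bp in ΔIkE120, a log2 ratio of −2.17, and was the only tested gene without a base in ΔIkE120. With 0 bp in 1 list the size of this ratio rests on the settings. It was −4.25 with a pseudocount of 100 bp and −1.20 with a flank of 50 kb. The peaks were small, of 290 to 682 bp, with a fold enrichment of at most 3.41. Of the wt bases, 673 bp also lay in the window of *Clstn1*. *Inpp5d*, which encodes SHIP1, the phosphatase that removes the product of PI3 kinase in blood cells, had 1801 and 311 bp (−1.32). Its start carried a wt peak of 913 bp with a fold enrichment of 4.86 and a ΔIkE120 peak of 311 bp with one of 3.65, and its other wt peaks, about 39 kb into the gene, had no partner. At *Inpp5d*, then, the start peak was both shorter and less enriched. Both genes had means close to the limit of 1000 bp, 1032.5 bp at *Pik3cd* and 1056 bp at *Inpp5d*.

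*Il2rb*, a chain of the IL-2 and IL-15 receptors, had 2737 bp in wt and 553 bp in ΔIkE120 (−1.43). Of the wt bases, 520 bp also lay in the window of *C1qtnf6* and 413 bp in that of *Tmprss6*. Of the 5 wt peaks of *Il2rb*, 3 had no overlap in ΔIkE120, and a peak of 466 bp just beyond the gene body was met by one of 279 bp. That peak had a fold enrichment of 2.53 in wt and 3.18 in ΔIkE120, while the strongest wt peak, with 2.93, had no partner. *Lfng*, which encodes the Fringe enzyme that adds sugars to Notch and tunes its response to ligands, had 2236 and 492 bp (−1.28), of which 1553 bp in wt also lay in the window of *Ttyh3*. Its direction turned with the upper 50% of peaks (0.17) and at a −log10 q-value of at least 5 (0.10). The peak before *Lfng* was present in both, with 4.14 and 4.40, and the loss of bases fell on the peaks in and behind the gene, of which 2 had no partner. *Zbtb7b*, which encodes ThPOK, the factor of CD4 T cell fate, had 2123 and 577 bp (−1.10). Its wt peak of 1648 bp was met by a ΔIkE120 peak of 577 bp with a higher fold enrichment, 3.19 against 2.64. The fewer bases thus came mostly from peaks without a partner at *Il2rb*, and mostly from a shorter peak at *Zbtb7b*.

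*Tle2*, a Groucho corepressor, had 1759 and 283 bp (−1.34). Of the wt bases, 1197 bp were shared with the window of *Tle5* and the other 562 bp with that of *Tle6*. No peak lay in the body of *Tle2*, so the call may be that of a neighbour. *Ptges*, the prostaglandin E synthase, had 1838 and 259 bp (−1.44), and *Chst3*, a chondroitin sulfotransferase, 1923 and 302 bp (−1.41). *Phldb1* had 3060 and 782 bp (−1.29), and its wt bases shared 1148 bp with the window of *Treh* and 884 bp with that of *Arcn1*. *Snx29*, a sorting nexin gene, had 4901 and 1476 bp (−1.26), the most covered bases in wt among the genes called lower. Of these wt bases, 1322 bp also lay in the window of *Tnfrsf17*. The rest of the 15 lowest were *Cldn14* (tight junctions), *Shisal1*, *Ampd3* (AMP deaminase), *Mgat3* (a glycosyltransferase) and *Rdh7* (retinol metabolism), between −1.22 and −1.09. Of the 1984 wt bp of *Rdh7*, 1374 bp also lay in the window of *Sdr9c7* and 610 bp in that of *Rdh16f2*. Of the 1729 wt bp of *Ampd3*, 1377 bp were shared with *Rnf141*. With the upper 50% of peaks and at a −log10 q-value of at least 5, *Mgat3* turned to 0.83 and 0.76, and in the second *Ampd3* turned to 0.94. The remaining 11 called lower, none below −1.07, were *Kirrel3*, *Actbl2*, *Nars2*, *Eml1*, *Map3k19*, *Atp8a2*, *Kcnn3*, *Rab19*, the predicted gene Gm52236, *Adam19*, a membrane protease (3059 and 995 bp) and *Ddx58*, the RNA sensor RIG-I (2165 and 630 bp). *Map3k19* turned to 1.21 with the upper 50% of peaks, and *Ddx58* to 1.30 at a −log10 q-value of at least 5. The 26 genes counted as 26 separate loci, since their windows did not overlap. *Zbtb7b* and *Kcnn3* on chromosome 3 were near each other, however, as were *Cldn14* and Gm52236 on chromosome 16. Of the 26 genes, 4 lay on chromosomes 14 or 15 and 2 on chromosome 4, where 833 and 689 of the 10725 tested genes lay. Of the 20 with a listed promoter, 14 had no peak within 1 kb of a start in either list, 5 had one in both and 1 in wt only. By comparison, 2038 of the 10725 tested genes had no listed promoter. Of the rest, 1379 had no such peak in either list, 7168 had one in both, 90 in wt only and 50 in ΔIkE120 only.

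The highest ratio was at *Accsl*, an aminocyclopropane carboxylate synthase-like gene, with 1618 bp in 5 wt peaks and 3988 bp in 8 ΔIkE120 peaks (1.27). Its strongest peak, behind the gene, was less enriched in ΔIkE120 (4.13 against 5.14), and 4 of the 8 ΔIkE120 peaks had no partner. Of the wt bases, 504 bp also lay in the window of *Accs*. *Afap1l2*, an adaptor gene, had 591 and 1694 bp (1.19), with 2 of its 3 ΔIkE120 peaks absent from wt. *Mmp12*, the macrophage elastase, had 655 and 1697 bp (1.11), *Rhoc* 562 and 1501 bp, *Sytl2*, a Rab27 effector of secretion, 816 and 1951 bp (1.08), and *Zfyve9*, an anchor of TGFβ signalling, 868 and 1929 bp (1.01). All wt bases of *Rhoc* also lay in the window of *Ppm1j*. The 6 genes shared no function that their names show and lay at separate loci. Just below the fold were *Rbfox1* (0.96), *Rtl3* (0.93), *Ogdhl* (0.92), *Zfp609* (0.89), *Scmh1* and *Ttc21a* (both 0.86), *Ift88*, the predicted gene 1700030K09Rik and *Abt1* (each 0.85). All wt bases of *Zfp609*, *Ttc21a* and 1700030K09Rik also lay in the windows of *Trip4*, *Gorasp1* and *Calr3*, respectively. With the upper 50% of peaks and at a −log10 q-value of at least 5, direction turned for *Rtl3* (−1.15 and −1.23) and *Ttc21a* (−0.25 and −0.32), and in the second also for *Abt1* (−0.24), while *Rbfox1* stood at 2.15 and 1.74.

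Among the 607 genes with at least 5000 bp no gene passed the fold against the genome-wide ratio. Against the median gene ratio *Ptprn2* (−1.05) and *Zcchc24* passed it. Of the 30 genes named from this group, direction turned for 10 with the upper 50% of peaks, among them *Ptprn2* (0.13) and *Nckap5* (0.88), and for 9 at a −log10 q-value of at least 5. The 9 included *Pax7* (−0.64), *Med13l* (−0.45), *Zswim6* (−0.10) and *Macf1* (−0.04), which were among the highest of the group. *Zswim6* (−0.19) and *Med13l* (−0.09) turned with the upper 50% of peaks as well. *Nfatc2* (−1.22 and −1.18) and *Sorcs2* (−2.21 and −1.38) were beyond 2-fold lower in these settings. The lowest was *Ptprn2*, a phosphatase-like gene of secretory vesicles, with 9719 bp in 16 wt peaks and 4210 bp in 7 ΔIkE120 peaks (−0.93). *Zcchc24* had 7010 and 3087 bp (−0.88) and *Tex2* 9873 and 5019 bp (−0.72). *Nfatc2*, which encodes the calcium-regulated factor NFAT1 of T cells, had 7236 and 3921 bp (−0.62). At *Nfatc2*, 6 of 11 wt peaks had no partner, and its longest wt peak, of 1856 bp and 2.99 in fold enrichment, was met by ΔIkE120 peaks of 292 and 930 bp. *Sorcs2*, *Erc1*, *Nckap5*, *Lrba*, *Pcca*, *Enthd1*, *Cdh23*, *Nol4l*, *Kcnip1*, *Mlec* and *Ppp1r16b* followed, from −0.55 to −0.40. Part of the *Cdh23* value, 5327 bp in wt, lay in the window of *Vsir*, which encodes the T cell checkpoint protein VISTA. The highest was *Focad*, a focal adhesion gene, with 5506 and 7393 bp (0.58). *Zswim6* (0.57), *Med13l*, a Mediator subunit (0.53), *Pax7* (0.52) and *Macf1*, a cytoskeletal linker with 9307 and 11789 bp (0.51), came next. *Pdgfc*, *Fars2*, *Igf1r*, *Tmcc1*, *Dnajb4*, *Rtn4rl1*, the predicted gene Gm50595, *Ahi1*, *Sertad2* and *Ergic1* lay between 0.41 and 0.50. *Pax7*, a muscle stem cell factor, had 4955 bp in 6 wt peaks, each with a partner in ΔIkE120, and 6381 bp in 9 ΔIkE120 peaks, 3 of them without a partner.

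*Ikzf1* itself was not called. Within 10 kb of the gene there were 8077 bp in 8 wt peaks and 8107 bp in 10 ΔIkE120 peaks, a log2 ratio of 0.19 and rank 7083 of 10725 from the lowest. The peak over its promoter measured 2332 bp in wt and 2125 bp in ΔIkE120, with fold enrichments of 2.18 and 2.45. Upstream, between the windows of *Spata48* and *Ikzf1* (chr11:11525193-11674961), where IkE120 lies, 10804 bp in wt stood against 7011 bp in ΔIkE120, a ratio of 0.649 that includes the deleted segment itself. The gene window thus held as many bases in the deletion as in wt, and the stretch before it fewer. Of 8 other protein-coding genes within 1 Mb, *Zpbp* had 1304 and 1501 bp, *Spata48* 4055 and 3937 bp, *Fignl1* 1820 and 1766 bp, and *Ddc*, which encodes dopa decarboxylase, 6060 and 4544 bp, none of them called. All wt bases of *Zpbp* also lay in the window of *Spata48*, and those of *Fignl1* in that of *Ddc*. The predicted gene 4930512M02Rik, which lies in the upstream stretch, had 1349 and 211 bp and a mean too low for a ratio. *Vwc2* had 264 bp in wt and 0 in ΔIkE120, and *Grb10* and *Cobl* had 0 in both. Over the whole stretch from 1 Mb before to 1 Mb after *Ikzf1*, 29485 bp in wt stood against 23599 bp in ΔIkE120.

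Ikaros partners and the pathways it is known to control were read as lists against the median of 0.12 and the called shares over all tested genes. In the Ikaros family, *Ikzf4* had 2788 and 1177 bp (−0.79), *Ikzf2* 2060 and 1104 bp (−0.49) and *Ikzf3* 0.21, and none of the 4 tested members was called, with a median of −0.15. All 13 NuRD genes were covered and tested, with a median of 0.10, from −0.08 at *Mbd2* and *Mta1* to 0.37 at the deacetylase gene *Hdac1* (2307 and 2695 bp). Of 15 tested Notch pathway genes and targets, *Lfng* was called lower and none higher, against 0.242% and 0.0559% of all tested genes, and the median was 0.20. A single call among so few genes says little about the pathway, and that call turned direction with stricter peaks. *Notch1* had 3772 and 3948 bp, the Notch target *Dtx1* 2683 and 2704 bp, the target *Myc* 2326 and 2699 bp, and the receptor gene *Notch3* 3134 and 2264 bp (−0.21). Apart from *Lfng*, then, tested Notch genes lay between −0.21 and 0.42.

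Of 5 tested E protein and Id genes, none was called, against 0.242% lower and 0.0559% higher over all tested genes. Their median was 0.30. *Id1*, an inhibitor of E proteins, had 1678 and 2414 bp (0.61), and *Tcf3*, the gene of E2A and a driver of thymocyte development, 3689 and 4416 bp (0.42). Of 15 Runx and Ets genes, none was called and the median was 0.13, with *Fli1* at 7594 and 8113 bp, *Etv6* at 7382 and 8032 bp, and *Runx2*, the lowest, at 3994 and 2529 bp (−0.38). The medians of both lists were thus near or above the median of all genes, while single genes such as *Runx2*, *Spi1* (−0.22), *Runx1* and *Ets1* (0.01) lay below it.

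Of 17 tested cytokine receptor and STAT5 pathway genes, *Il2rb* was called lower and none higher, against 0.242% and 0.0559% of all tested genes, so this single call says little about the list. The median was −0.12 and the ratio of summed bases 0.813 (69261 bp in wt and 56293 bp in ΔIkE120), against 0.911 over all genes. *Stat5a*, which carries signals of IL-2 and IL-7, had 7148 and 5405 bp (−0.19), *Il21r* 6133 and 4856 bp (−0.12), *Il2ra* 5227 and 3905 bp (−0.19), and the survival gene *Bcl2* 4155 and 2574 bp (−0.41). *Il2rg*, the shared receptor chain, had 4536 and 4778 bp (0.25), and *Ifngr2*, the highest, 2486 and 3170 bp (0.48). Values below the median of all genes were thus common in this list, but not shared by all of it. Of 14 tested NFAT and NF-κB genes, none was called and the median was −0.02, with a ratio of summed bases of 0.789 (53402 and 42142 bp). Beside *Nfatc2*, *Nfatc1* had 7757 and 5221 bp (−0.34), and *Nfkbia*, which encodes the inhibitor IκBα, 1938 and 1000 bp (−0.51). *Nfatc3* had 7326 and 6429 bp (0.01), and *Nfat5*, the highest of this list, 2479 and 2846 bp (0.35).

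Calls were again too rare over all tested genes (0.242% lower and 0.0559% higher) for their absence from a short list to say much. Of 15 tested immediate early genes, none was called and the median was 0.09. *Junb* had 4225 and 3762 bp, *Egr1* 1722 and 1926 bp, and *Nr4a1*, the orphan receptor gene induced by T cell receptor signals, 2796 and 1171 bp (−0.79). *Fos* had 215 bp in wt and 0 in ΔIkE120, and *Egr3* and *Atf3* had 0 in both. Of 19 effector cytokine genes, 9 were covered in each genotype, and *Il2*, *Ifng*, *Il17a*, *Csf2* and *Il21* had 0 in both. *Ltb* had 3730 and 3883 bp, and *Ccl3* and *Ccl4*, which share their peaks, 1774 and 746 bp. Genes that PMA/ionomycin is known to induce were thus covered in part, but their coverage gave no direct measure of whether the cells were stimulated. Of 10 tested homing genes, none was called and the median was −0.08. The list summed to 30342 bp in wt and 24260 bp in ΔIkE120, and its tested members ranged widely, from −0.96 to 0.59. Among the lower ones was *Itgb7*, an integrin gene of gut homing, with 3008 and 1751 bp (−0.45). The highest was *Ccr4*, a chemokine receptor gene, with 1665 and 2365 bp (0.59).

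Calls were also absent from lists of survival, division and tumour genes, as is usual for lists of this size at called shares of 0.242% and 0.0559% over all tested genes. Of 11 tested Bcl2 family genes, none was called and the median was 0.17, from −0.46 at *Bmf* (4159 and 2473 bp) to 0.36 at *Bbc3*, which encodes PUMA. *Bcl2l11*, which encodes BIM, had 4169 and 4119 bp and *Mcl1* 2567 and 2757 bp. Of 28 tested cell cycle genes, none was called and the median was 0.14, with *Cdk6* at 4926 and 5366 bp, *E2f1* at 4146 and 4641 bp, and *Cdkn1a*, which encodes the p53 target p21, lowest at 1759 and 872 bp (−0.53). *Ccnd2* had 0 in both. Of 12 tested p53 targets, none was called and the median was 0.08. Of 15 tested T cell leukaemia genes, none was called and the median was 0.07, with *Lef1* at 8530 and 5940 bp (−0.30), *Dnmt3a* at 7691 and 7621 bp, and *Tlx1*, *Tlx3* and *Lmo1* at 0 in both. The lists therefore held no call outside *Lfng* and *Il2rb*.

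The antigen presentation list behaved likewise. Of 13 tested genes of MHC class I and peptide processing, none was called and the median was 0.19. Over all tested genes, 0.242% were called lower and 0.0559% higher. The peptide transporter genes *Tap1* and *Tap2* had 5311 and 5888 bp, and 5281 and 6037 bp, and *B2m*, the light chain, 3348 and 3025 bp. *H2-K1* had 0 in both lists, and *H2-D1* 1101 and 1508 bp (0.51). Among large families, 181 tested Zfp genes had a median of 0.11 and 198 tested solute carrier genes one of 0.11, and none of either was called. At these shares of calls over all tested genes, the absence of calls says little about either family. Of 49 keratin genes, 9 were covered in wt and 5 in ΔIkE120.

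The ratio was not the same on every chromosome. Of the 20 chromosomes with peaks, chromosome 4 stood highest at 0.968 (1468991 bp in wt and 1422020 bp in ΔIkE120), chromosome 14 lowest at 0.810 (1095506 and 887761 bp), and chromosome 15 next at 0.836 (1282444 and 1072332 bp). The other 17 lay between 0.852 and 0.921, chromosome 11, which carries *Ikzf1*, at 0.882. Along chromosome 4 the ratio changed. Below 70 Mb, a position chosen after the values were seen, it was 0.875 (422331 and 369562 bp), and from there on 1.01 (1046660 and 1052458 bp). In bins of 10 Mb with at least 50000 covered bases on average, the far part of chromosome 4 gave 0.923 to 1.06, chromosome 14 gave 0.736 to 0.862 and chromosome 15 gave 0.739 to 0.863, while the quartiles over 178 such bins were 0.847 and 0.907. Of these bins, 6 of 6 on the far part of chromosome 4 lay above the upper quartile, and 7 of 8 on chromosome 14 and 4 of 7 on chromosome 15 below the lower. The 6 bins start at 100 Mb, since those from 70 to 100 Mb had too few covered bases. The 3 such bins before 70 Mb gave 0.853 to 0.911. The differences thus extended over many bins. The remaining bins on 14 and 15 were below the genome-wide ratio as well, but within the quartiles.

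The enrichment of shared peaks did not move in the same way. For peaks that overlapped one-to-one, the median log2 ratio of fold enrichment was 0.01 on chromosome 4, the lowest of any chromosome, 0.04 on chromosome 14 and 0.04 on chromosome 15. Whether the number of copies of these chromosomes differed between the lines was not tested, since peak lists do not hold read depth. Tested genes on chromosome 4 from 70 Mb on had a median log2 ratio of 0.21 over 497 genes, against 0.15 over the 192 before it. With each gene set against its own chromosome, 26 genes were again called lower and 6 higher, 29 of them among the 32.

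**Figure D3:**
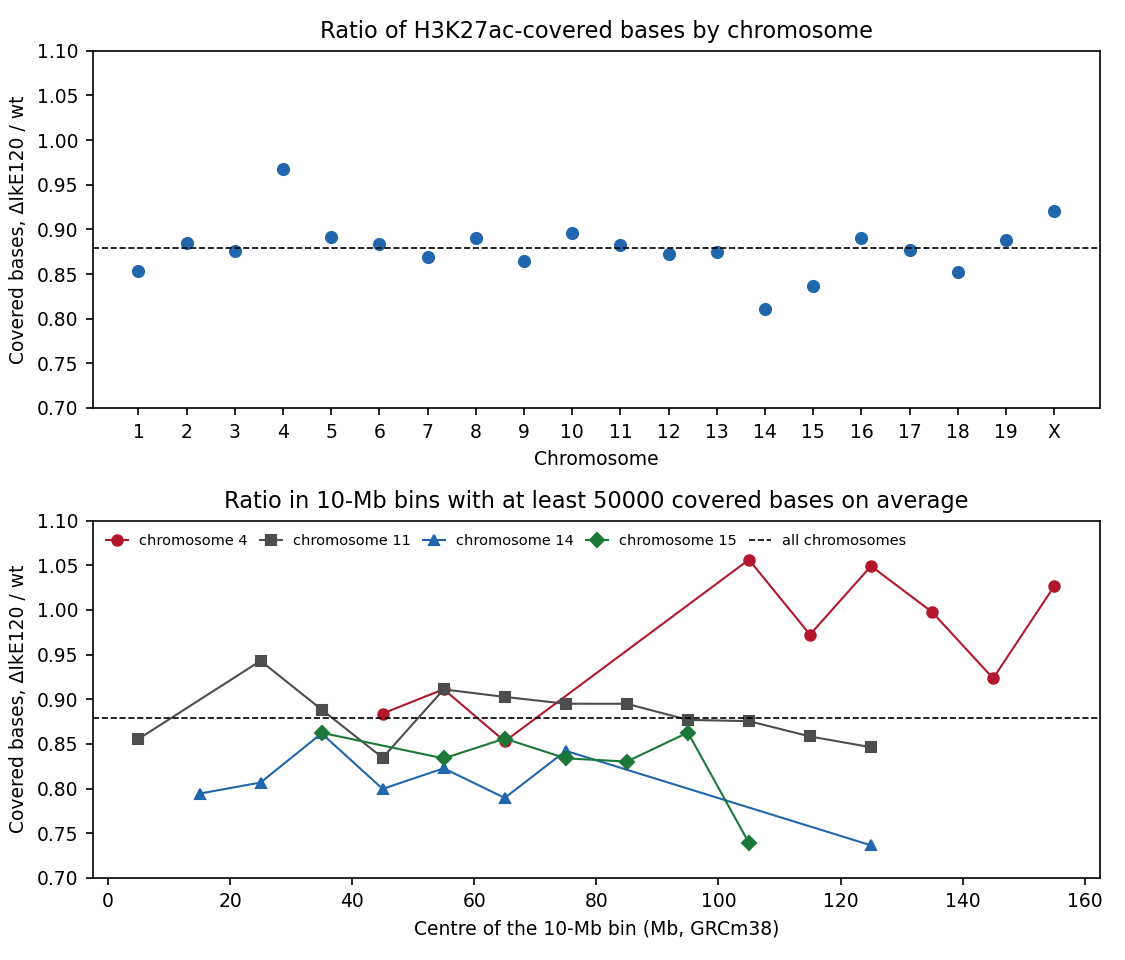
Ratio of covered bases, ΔIkE120 over wt, for each chromosome (top, 1 point per chromosome) and in bins of 10 Mb along chromosomes 4, 11, 14 and 15 in GRCm38 (bottom, 1 point per bin, joined by lines), with the genome-wide ratio of 0.879 dashed. Only bins with at least 50000 covered bases on average are drawn, so chromosome 4 has no point between 70 and 100 Mb. Its points from 100 Mb on lie above the line and those before 70 Mb on both sides. The points of chromosomes 14 and 15 lie below it throughout, and chromosome 11 runs on both sides.

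Among bins of 1 Mb, the most covered in wt was chromosome 9 from 44 to 45 Mb, with 83660 and 74608 bp. It holds *Cbl*, a ubiquitin ligase that dampens T cell receptor signals, *Bcl9l*, *Cxcr5* and *Thy1*. Chromosome 7 from 127 to 128 Mb followed with 76810 and 73272 bp, and chromosome 11 from 117 to 118 Mb, with *Septin9*, with 71504 and 66877 bp. Chromosome 11 from 115 to 116 Mb had 65175 and 56878 bp, and chromosome 4 from 133 to 134 Mb, with the BAF gene *Arid1a*, 63564 and 64703 bp. These are gene-rich stretches, of 14 to 52 genes each. Over the 1267 bins with at least 5000 bp on average, the median ratio was 0.879 (quartiles 0.816 and 0.944). The lowest ratios were on chromosome 7 from 74 to 75 Mb (0.532, 8009 and 4261 bp), chromosome 8 from 36 to 37 Mb (0.572), chromosome 1 from 126 to 127 Mb, within *Nckap5* (0.579), chromosome 7 from 76 to 77 Mb (0.607) and chromosome 9 from 67 to 68 Mb (0.608). The highest were on chromosome 7 from 68 to 69 Mb, with *Igf1r* (1.32, 7144 and 9417 bp), chromosome 4 from 88 to 89 Mb, with *Focad* (1.30), chromosome 4 from 111 to 112 Mb (1.27), chromosome 4 from 120 to 121 Mb (1.18) and chromosome 3 from 81 to 82 Mb, with *Pdgfc* (1.18). Of 128 bins with a ratio of at least 1, 30 lay among the 75 on chromosome 4.

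Promoter sequences were set beside the peaks. RefSeq sequences on GRCm38.p6 were listed for 17492 of the 21887 genes, with 21263 promoters, of which the 250 bases before the start were read. A peak lay within 1 kb of the start in both lists at 9674 promoters, in wt only at 234, in ΔIkE120 only at 126 and in neither at 11229. Promoters with a peak in both lists had a median GC content of 61.2% and 17 CpG, against 54.0% and 5.5 where the peak was in wt only, 54.6% and 7 where it was in ΔIkE120 only, and 50% and 3 without a peak. Promoters with a peak in a single list were thus closer in base composition to promoters without one. Words were searched on both strands, namely CCGGAAGT (Ets), TGTGGT (Runx), CAGCTG (an E-box), TGGGAA (the Ikaros core), TGACTCA (AP-1) and CGCGCG (CpG), with overlapping matches counted. Of all promoters 3.79% held CCGGAAGT, 12.4% TGTGGT, 12.1% CAGCTG, 20.9% TGGGAA, 4.06% TGACTCA and 12.3% CGCGCG. Where both lists had a peak, CCGGAAGT was present in 7.32% and CGCGCG in 20.2%, against 0.828% and 5.75% without a peak. TGGGAA was present in 19.4% of promoters with a peak in both, 26.1% with one in wt only, 19% with one in ΔIkE120 only and 22.2% without one. Other words were also more frequent with a peak in wt only than in both, TGTGGT with 19.2% against 9.90%, CAGCTG with 17.5% against 10.6% and TGACTCA with 7.26% against 2.43%. With a peak in ΔIkE120 only, these stood at 17.5%, 16.7% and 0.794%. Without a peak they stood at 14.3%, 13.3% and 5.44%. CCGGAAGT and CGCGCG went the other way, with 1.71% and 4.27% in wt-only promoters. With only 234 and 126 promoters in the single-list classes, low shares such as 0.794% rest on very few promoters. The excess in wt-only promoters over those with a peak in both was thus not particular to TGGGAA, nor shared by all words. The words were chosen after the peaks had been seen, and a match is a description of letters only.

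To set promoters of called genes, with and without a start peak, beside that of the targeted gene, the 250 bases before the start are given 5′ to 3′ on the strand of the gene, with any of these words in capitals. Of the 3 listed *Pik3cd* promoters, the one at the wt peak (chr4:149698709-149698958, minus strand) had 682 bp of peak within 1 kb of this start in wt and 0 in ΔIkE120. *Inpp5d* (chr1:87620062-87620311, plus strand) had 913 and 311 bp. *Lfng* (chr5:140607091-140607340, plus strand) had no peak within 1 kb in either list. Of the 2 listed *Ikzf1* promoters, the first (chr11:11685675-11685924, plus strand) had 2001 bp in both, which is the whole stretch counted, and the other, not shown, had 137 bp in wt and 502 bp in ΔIkE120. Their GC contents were 53.6%, 54.4%, 66.0% and 82.0%, with 6, 5, 18 and 44 CpG. The *Pik3cd* window held none of the words, *Inpp5d* TGGGAA, *Lfng* CAGCTG and TGGGAA on each strand, and *Ikzf1* CGCGCG.
Pik3cd: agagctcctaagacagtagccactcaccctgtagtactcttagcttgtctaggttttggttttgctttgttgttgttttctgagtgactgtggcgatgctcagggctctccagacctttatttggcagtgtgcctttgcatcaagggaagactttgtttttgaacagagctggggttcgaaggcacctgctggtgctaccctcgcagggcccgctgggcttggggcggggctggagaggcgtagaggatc
Inpp5d: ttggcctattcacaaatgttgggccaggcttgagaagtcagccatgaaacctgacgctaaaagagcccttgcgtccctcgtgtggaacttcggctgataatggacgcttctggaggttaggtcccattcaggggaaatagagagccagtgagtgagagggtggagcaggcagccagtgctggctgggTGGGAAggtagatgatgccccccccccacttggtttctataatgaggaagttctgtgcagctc
Lfng: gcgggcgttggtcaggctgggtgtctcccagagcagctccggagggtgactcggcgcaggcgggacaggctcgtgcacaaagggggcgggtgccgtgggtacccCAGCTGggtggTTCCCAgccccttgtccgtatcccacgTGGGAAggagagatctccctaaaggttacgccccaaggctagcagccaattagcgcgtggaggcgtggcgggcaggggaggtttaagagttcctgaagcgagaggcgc
Ikzf1: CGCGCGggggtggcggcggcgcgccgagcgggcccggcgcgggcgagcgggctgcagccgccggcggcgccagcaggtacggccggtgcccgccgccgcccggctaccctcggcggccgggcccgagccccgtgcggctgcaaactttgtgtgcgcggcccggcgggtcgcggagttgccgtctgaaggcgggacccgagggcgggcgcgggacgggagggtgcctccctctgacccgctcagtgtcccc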

How the data were processed

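P5424 cells of either genotype gave 1 H3K27ac ChIP-seq library each. The broad peak lists deposited by the authors, on GRCm38, hold a score, a fold enrichment (the ratio over background, a mean per peak), and the p-value and q-value of each peak as −log10. The submitters' processing notes name Bowtie2 2.3.4.3 and MACS2 2.1.1. The number of reads is not given in the sources used here, so depth is unknown. The deposited score was not used.

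From the lists, bases covered by peaks on chromosomes 1 to 19, X and Y were summed for RefSeq protein-coding genes on GRCm38.p6, in the gene body and 10 kb on either side. A base in several gene windows counts in each. Log2 ratios had 500 bp added, the genome-wide ratio taken off and a mean of at least 1000 bp required. The counting was checked on simulated data. Named genes were the 20 most covered, the 20 most densely covered, the 15 lowest and 15 highest at both limits, *Ikzf1* and its neighbours, and up to 5 bins per direction. Members of the 36 gene lists were also named, by most bases or extreme ratios. Members and lists were chosen with earlier results of these data known. The loci described peak by peak, the printed promoters, the words searched and the split of chromosome 4 were chosen after values were seen, as were members named for a value of 0 or a role. Alternatives were stricter peaks, equal numbers of peaks, other backgrounds, pseudocounts, filters, flanks and overlaps, and leaving out chromosomes 4, 14 and 15. The scripts ran under Python 3.11.15 with pandas 2.3.3, numpy 2.4.6, matplotlib 3.10.9 and scipy 1.17.1.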

Additional observations from a re-analysis of the deposited data

Results flagged for a closer look

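The ΔIkE120 list held 4 peaks on the mitochondrial genome, which was not part of any comparison. The count was flagged against a limit of 3, set for an expected count of 0, which does not compare the lists. The ΔIkE120 peaks covered 2089 bp with a fold enrichment of at most 2.74. The wt list held 3 such peaks, nearly as many, over 947 bp, with a fold enrichment of at most 2.83. The mitochondrial genome carries no histones, as background. Whether these peaks show the level at which background is called was not tested.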

How the results depend on the processing

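The number of genes with a covered base stayed within 1.5 times under each alternative tried, from 11645 to 15980 in wt and from 11417 to 15772 in ΔIkE120. The ratio of covered bases was 0.874 with the upper 50% of each list by −log10 q-value, 0.921 with a −log10 q-value of at least 5, 0.942 with the same number of top peaks, and 0.879 without chromosomes 4, 14 and 15, an alternative chosen after seeing the data. The share of wt peaks with an overlap in ΔIkE120, 74.4% with all peaks and any overlap, was 80.1%, 84.1% and 81.4% under the first 3 and 68.1% when 50% of the peak had to be covered.

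Genes called lower and higher numbered 90 and 30 with that upper 50%, 68 and 44 at a −log10 q-value of at least 5, 19 and 12 with the same number of peaks, 53 and 2 against the median gene ratio, 78 and 18 with a pseudocount of 100 bp, 0 and 0 with 2000 bp, 0 and 0 at a mean of at least 5000 bp, 150 and 68 without the filter, and 56 and 10 with a flank of 50 kb. They numbered 26 and 6 against the gene's own chromosome, 21 and 7 with a flank of 0 kb, and 20 and 5 without the 3 chromosomes. The higher share of the calls was 18.8% in the report, 39.3% at a −log10 q-value of at least 5, 38.7% with the same number of peaks and 3.64% against the median gene ratio. Of the 32 called genes, all kept their direction under the background, pseudocount, 50 kb flank and equal-number alternatives. The background alternatives could not turn a call, since they shift a log2 ratio by at most 0.14, and a pseudocount mainly stretches or shrinks it. Called again were 8 of the 32 with a flank of 50 kb, 18 with 0 kb, 17 with equal numbers, 28 against the median gene ratio and 29 against the own chromosome.

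Direction changed with the upper 50% for *Lfng* (0.17), *Mgat3* (0.83) and *Map3k19* (1.21), and at a −log10 q-value of at least 5 for *Lfng* (0.10), *Ampd3* (0.94), *Mgat3* (0.76) and *Ddx58* (1.30). By the log2 ratio of the mean fold enrichment of the strongest peak, with the median over tested genes (0.04) taken off, it changed for 20 of the 32, namely *Il2rb* (0.0740), *Chst3* (0.0790), *Phldb1* (0.0383), *Lfng* (0.0442), *Snx29* (0.0249), *Cldn14* (0.20), *Ampd3* (0.34), *Mgat3* (0.49), *Zbtb7b* (0.23), *Rdh7* (0.0795), *Ddx58* (0.0561), *Nars2* (0.20), *Gm52236* (0.16), *Map3k19* (0.0439), *Atp8a2* (0.12), *Rab19* (0.14), *Accsl* (−0.36), *Mmp12* (−0.10), *Rhoc* (−0.0538) and *Zfyve9* (−0.23). The cause was not tested. No paired analysis was possible because each genotype had 1 library.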
